A study of Zea mays with 448 samples.

Results

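Plants methylate cytosines in different sequence contexts with different enzymes, and the methyl marks keep transposons and repeats silent. Maintenance methyltransferases copy CG methylation after replication, chromomethylases add methylation at CHG sites (H is any base but G), chromatin remodellers open packed DNA to these enzymes, and an RNA-directed route uses small RNAs to guide new methylation. The maize genome is rich in transposons, and mop1, a gene of that route, was found through its part in paramutation.

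The genes examined were 5, chosen by their identifiers: zmet1 (GRMZM2G333916), a maintenance methyltransferase of the MET1 type, zmet2 (GRMZM2G025592) and zmet5 (GRMZM2G005310), both chromomethylases, a homolog of ddm1 (GRMZM2G177165), which in Arabidopsis encodes a remodeller needed for methylation of heterochromatin, and mop1 (GRMZM2G042443), an RNA-dependent RNA polymerase of the RNA-directed route that is required for paramutation in maize. These 5 genes were set against 53921 genes with at least 1 segregating site in the files. zmet1 had no line in any of the 448 files read, so no value is given for it. The other 4 passed the minimum of 100 F1 reads in every tissue, as did 17677 ear, 18192 leaf and 18451 stem genes.

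The study compared maize with teosinte, its wild progenitor. F1 hybrids of 29 crosses (28 in ear) between 6 maize inbreds (B73, CML103, Ki3, Mo17, Oh43 and W22) and 9 teosinte inbreds (TIL01, TIL03, TIL05, TIL09, TIL10, TIL11, TIL14, TIL15 and TIL25) were sequenced beside the inbreds themselves, in the immature ear, the leaf and the seedling stem with its shoot apical meristem. No group carried a transgene or a treatment: plants of every genotype were raised in growth chambers and moved to a greenhouse for the ear samples. Leaf and stem came from seedlings at the v4 stage, and ears were taken as silks appeared, with several ears of a plant pooled for teosinte and single ears used for maize and the F1s. The cross or the inbred, not the library, was the unit of the main edgeR fits and the linear model. Their p-values measure the spread between these genotypes. The edgeR fits of F1s took crosses as independent although crosses share parents, so their p-values leave that sharing out. The regulatory categories instead tested pooled reads.

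An F1 carries both alleles in 1 nucleus, so the ratio of maize to teosinte reads in an F1 measures cis differences, and the parent difference that the F1 ratio leaves over measures trans differences. Reads were counted at bases that differ between the parents of a cross. The study reduced alignment bias toward maize alleles but does not exclude that a maize excess is partly an artifact. It saw no significantly greater maize bias in crosses of B73, the reference line, than in the others. The part of alignment in the members' ratios was not tested. F1 libraries held 814831 to 3178709 such reads and inbred libraries 603933 to 4278594. The maize share of F1 reads had a median of 50.4% in ear, 50.5% in leaf and 50.5% in stem libraries. Of the cross B73xTIL01, the ear library of replicate 1, the leaf library of replicate 1 and the stem library of replicate 2 stood apart at 56.9, 80.7 and 80.1% maize. Libraries named for 2 crosses outside the study's list held 96.3 to 99.4% (Mo17xTIL25) and 31.1 to 31.9% (CML103xTIL25) maize reads and entered no main result. By median summed level per site, ear and leaf markers were highest in the tissue of their name. The 4 stem markers, meristem genes, were not: their summed level per site was 13.9 to 145 in ear, against 3.07 to 96.9 in stem.

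The members lay on 2 chromosomes of the B73 AGPv2 assembly. Sites of zmet2 ran over positions 142187498 to 142194454 of chromosome 10. The other members were on chromosome 2, with sites of zmet5 at 10340253 to 10347243, of mop1 at 40503046 to 40506319 and of the ddm1 homolog at 236353671 to 236357286. Each site was a base of an annotated transcript, hence exonic. In total 35 sites of zmet2 gave 119213 F1 reads, 36 sites of zmet5 gave 74341, 26 sites of the ddm1 homolog gave 34186 and 38 sites of mop1 gave 43346. No member rested on 1 site: the deepest held 14.9% of the F1 reads of zmet2, 15.5% of zmet5, 13.8% of the ddm1 homolog and 8.84% of mop1. A single cross was read at 1 to 11 sites of zmet2, 1 to 14 of zmet5, 1 to 12 of the ddm1 homolog and 2 to 17 of mop1.

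The ddm1 homolog was the member whose F1 ratio over crosses was called by edgeR, in ear and in stem. In ear F1s its maize allele had 9623 reads, against 7213 of the teosinte allele, summed over 27 crosses with at least 10 reads each. The log2 ratio per cross ran from -0.22 in CML103xTIL03 over a median of 0.37 to 1.07 in Oh43xTIL01. These extremes rested on 59 maize and 69 teosinte reads in CML103xTIL03 and on 352 and 167 in Oh43xTIL01. The maize allele was higher in 22 of 27 crosses and the teosinte allele in 5. Among single libraries with at least 10 reads, the maize allele was higher in 47 of 57. Over crosses the maize allele was 1.32-fold higher (log2 0.40, SE 0.07, adjusted p = 0.000255, edgeR quasi-likelihood test with the cross as a block, adjusted over all 17677 genes).

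In stem the same gene had 7813 maize reads, against 6688 teosinte reads. Its ratio ran from -0.38 in Mo17xTIL09 to 1.61 in B73xTIL05 with a median of 0.24, and the maize allele was higher in 21 of 28 crosses. The fitted ratio was 1.17-fold (log2 0.23, SE 0.07, adjusted p = 0.0308). In leaf there were 1609 maize reads, against 1240 teosinte reads. The leaf ratio was -1.44 in Oh43xTIL01 and 1.84 in Ki3xTIL03 at the extremes, which held 12 and 15 reads, and the fit over crosses did not pass the test (log2 0.27, SE 0.12, adjusted p = 0.124). The ear call was kept in each alternative but 1, the deepest site of each gene picked within each cross. There the log2 ratio was 0.26 with adjusted p = 0.0871. The stem call was less firm: it was lost without the libraries above 55% maize (log2 0.21, adjusted p = 0.0529), without crosses of any 1 of 6 parents (B73, Ki3, Oh43, TIL03, TIL11 and TIL25), without either replicate, with TMM scaling of the 2 alleles (0.18, 0.0882) and at the deepest site (0.10, 0.323).

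**Figure D1:**
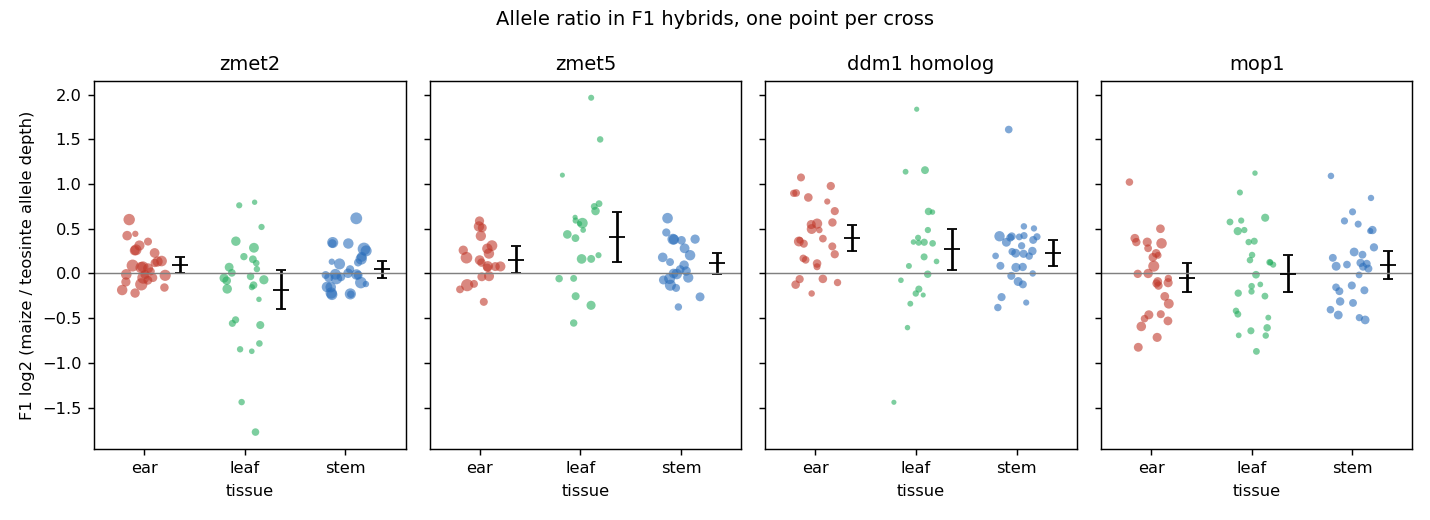
Log2 ratio of maize to teosinte reads in F1s (vertical axis) for 4 members in ear, leaf and stem. Each point is a cross with its size set by read depth, and the mark beside it is the fit over crosses with 2 SE either way. The fit of the ddm1 homolog lies above 0 in ear (0.40) and stem (0.23), and leaf points scatter most.

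Single sites of the ddm1 homolog gave the same direction. Over all crosses its deepest site was A574G, at position 236357031. Substitutions give the B73 base, the position counted from 1 at the 5′ end of the transcript and the other base. Over 14 crosses that site held 4706 F1 reads, of which ear gave 1317 maize and 1063 teosinte reads. Site A1691G had 1189 maize and 863 teosinte reads in ear, a log2 ratio of 0.46. Of the sites with at least 100 reads, the maize allele was higher at 22 of 23 in ear, at 9 of 9 in leaf and at 22 of 23 in stem, with a median log2 ratio of 0.44 in ear. Neighbouring sites share reads and plants, so these counts describe the gene and were not tested.

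By maize parent, the ear ratio of the ddm1 homolog was highest in crosses of Oh43, with 3285 maize and 2091 teosinte reads (log2 0.65, maize higher in 7 of 7 crosses). Crosses of W22 held 1571 maize and 1054 teosinte reads (0.58, 4 of 4 crosses), and those of B73 2370 and 1827 (0.38, 7 of 7). Crosses of CML103, Ki3 and Mo17 were nearer to equal, at 0.20, 0.08 and -0.03. The cross B73xTIL05 was high in each tissue, with 505 maize and 280 teosinte reads in ear, 328 and 147 in leaf, then 300 and 98 in stem. Neither the maize parent (adjusted p = 0.0813 in ear) nor the teosinte parent (0.146) passed the test among ear crosses in a weighted linear model, although the maize parent did without weights (adjusted p = 0.0202) and without replicate 2 (0.0304).

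Neither chromomethylase had an F1 ratio called by edgeR over crosses. For zmet2, ear F1s held 26484 maize and 24952 teosinte reads, leaf F1s 5999 and 6285, and stem F1s 28454 and 27039. The ear ratio per cross lay between -0.22 (Oh43xTIL11) and 0.60 (CML103xTIL03) with a median of 0.07, and maize was higher in 16 of 27 crosses. The stem ratio had nearly the same range, -0.24 to 0.62, and leaf a wider one, -1.77 to 0.80. The fits were log2 0.09 (SE 0.04, adjusted p = 0.167) in ear, -0.18 (0.11, 0.295) in leaf and 0.05 (0.05, 0.567) in stem. With 2 SE either way the mean ear ratio was bounded by 0.00 and 0.18, while single crosses lay outside these bounds.

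Sites of zmet2 split between alleles, with maize higher at 23 of 32 sites in ear, at 9 of 26 in leaf and at 17 of 31 in stem. Its deepest site, C2080T at position 142189943, had 3761 maize and 3652 teosinte reads in ear over 10 crosses. Some sites stood apart toward maize. Site T1693C, read in 5 crosses, had 790 maize and 261 teosinte reads in ear. It had 91 and 42 in leaf, then 829 and 153 in stem. Site A3116G, read in 1 cross, had 120 and 40 in ear. Site C3157T, also read in 1 cross, had 25 and 0 in ear, 26 and 0 in leaf, then 9 and 0 in stem. Of sites with at least 100 reads, C2329T went furthest toward teosinte in ear, with 763 maize and 962 teosinte reads. The part of single sites such as T1693C in the ratios of zmet2 was not tested.

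The lowest leaf values of zmet2 were those of 2 crosses of TIL03. Ki3xTIL03 had 83 maize and 285 teosinte leaf reads (43 and 117 in replicate 1, 40 and 168 in replicate 2), and Oh43xTIL03 had 34 and 93. In ear and stem both crosses had more maize reads, in Ki3xTIL03 with 1016 maize and 818 teosinte reads in ear and 2794 and 2310 in stem. The cross CML103xTIL03 had 1942 maize and 1279 teosinte reads in ear, 2286 and 1491 in stem, and 214 and 213 in leaf. Within crosses, the zmet2 ratio differed by log2 0.27 between ear and leaf (SE 0.10, adjusted p = 0.114) and by -0.22 between leaf and stem (0.10, 0.208), neither past the threshold.

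For zmet5, the second chromomethylase, ear F1s held 17535 maize and 15644 teosinte reads, leaf F1s 5126 and 4239, and stem F1s 16643 and 15154. Maize was higher in 15 of 21 ear crosses, 16 of 21 leaf crosses and 13 of 22 stem crosses. The ear ratio ran from -0.32 (Mo17xTIL14, 231 maize and 288 teosinte reads) to 0.59 (B73xTIL01, 682 and 454). Its leaf ratio had a median of 0.49 and a fit of 0.41 (SE 0.14), the largest of the 12 fitted member ratios, with adjusted p = 0.0510. Ear and stem fits were 0.15 (SE 0.08, adjusted p = 0.179) and 0.11 (0.06, 0.218). The leaf value passed without crosses of Mo17 (adjusted p = 0.0158) and without those of TIL09 (0.0288), whose leaf reads in Mo17xTIL09 were 134 maize and 197 teosinte. It also passed in DESeq2 (0.0209), where the ear value of zmet5 did too (0.0269).

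At the deepest site of zmet5, T1474G at position 10344444, 13 crosses gave 2620 maize and 2308 teosinte reads in ear. Maize was higher at 24 of 31 sites in ear, at 15 of 19 in leaf and at 17 of 28 in stem. A site of a single cross, A1307G, had 99 maize and 11 teosinte reads in ear.

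For mop1 no ratio over crosses passed the test, while single crosses lay far to either side. Ear F1s held 12193 maize and 12755 teosinte reads, leaf F1s 2573 and 2518, and stem F1s 6670 and 6637. The ear ratio ran from -0.83 in CML103xTIL14 (331 maize and 587 teosinte reads) to 1.02 in B73xTIL05 (236 and 116), with a median of -0.06 and maize higher in 11 of 27 crosses. Fits were log2 -0.05 (SE 0.08, adjusted p = 0.732) in ear, -0.0010 (0.11, 0.996) in leaf and 0.09 (0.08, 0.482) in stem. Its deepest site, G2562A at position 40504144, had 1140 maize and 1097 teosinte ear reads over 14 crosses, and 14 of 36 ear sites were higher for maize.

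By maize parent the ear ratio of mop1 was 0.27 in crosses of Oh43 and 0.25 in those of Ki3, against -0.50 for CML103 (maize higher in 0 of 3 crosses), -0.41 for Mo17 (0 of 2) and -0.39 for W22 (0 of 5). By teosinte parent, crosses of TIL03 were low in ear (-0.52, maize higher in 0 of 4 crosses). Crosses of TIL11 were high in stem (0.47) and leaf (0.56), with maize higher in 5 of 5 crosses in both tissues. W22xTIL03 showed the low side in each tissue, with 394 maize and 647 teosinte reads in ear, 67 and 123 in leaf, then 365 and 504 in stem.

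The linear model of the ratio on both parents called a parent term (adjusted p below 0.05) for 2 of 4 members in ear, 2 in leaf and 3 in stem, against 35.1% of ear, 28.2% of leaf and 31.9% of stem genes. In ear both terms passed for zmet2 (maize parent adjusted p = 0.00245, teosinte parent 0.0286) and for mop1 (0.00182 and 0.0207). Both maize-parent terms stayed without replicate 1 and without replicate 2. The teosinte-parent terms were lost both times (0.336 and 0.0594 for zmet2, 0.0730 and 0.0609 for mop1). At the deepest site only the maize parent of mop1 stayed of these ear terms. Without libraries above 55% maize, the maize parent also passed for zmet5 in ear (0.0235). In leaf the maize parent passed for zmet2 (0.0369) and the teosinte parent for mop1 (0.00989), and neither passed without replicate 1 or without replicate 2. In stem both passed for zmet2 (0.00706 and 0.00253), and the teosinte parent passed for zmet5 (0.0230) and mop1 (0.00443), and no term of a member passed in stem without replicate 1. Single parents were not tested. For zmet2, crosses of CML103 had pooled ratios of 0.47 in ear (3 of 3 crosses with maize higher), 0.22 in leaf and 0.37 in stem, and those of TIL03 had 0.30 in ear (5 of 5) and 0.32 in stem (4 of 5), beside TIL25 at -0.14 in stem (0 of 3). Leaf was lowest in crosses of Ki3, with 253 maize and 535 teosinte reads (-1.08, 1 of 4). For zmet5, TIL11 was highest in stem among the parents with several crosses, at 0.43 (5 of 5 crosses).

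Counted over tissues, 1 of 4 members had a called F1 ratio in ear (15% of all genes in either direction, 9.34% with maize higher), 0 of 4 in leaf (13% and 8.8%) and 1 of 4 in stem (12.8% and 8.57%). The 0 in leaf was by edgeR, with 2 members, zmet5 and the ddm1 homolog, at an unadjusted p under 0.05 and 1 called by DESeq2. All calls split into 1601 genes with maize higher and 762 with teosinte higher in leaf and 1581 and 787 in stem, against 1263 and 1027 in leaf and 1285 and 1076 in stem when both alleles were scaled by TMM factors. No member was called for a change of its ratio between tissues, against 6.28% of genes called between ear and leaf, 2.44% between ear and stem and 4.54% between leaf and stem. The ddm1 homolog differed by log2 0.16 between ear and stem (SE 0.07, adjusted p = 0.286) and by 0.15 between ear and leaf (SE 0.10, adjusted p = 0.472), so its ear and leaf ratios were not shown to differ although the ear ratio alone was called.

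Levels of the members differed between tissues. A level is given as the F1 reads of both alleles per counted site, per 1000000 site reads of the F1. Sites differ between crosses and genes, so levels were compared between tissues within a cross. In bulk tissue, fewer cells that use a gene and less RNA per cell cannot be told apart. The tissues were also sequenced in different pools but for pool 6, so tissue and sequencing pool cannot be told apart outside it.

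zmet2 had a median level of 125 in ear (42.7 to 226 over crosses), 13.1 in leaf (0.967 to 133) and 113 in stem (29 to 213). zmet5 had 62.5 in ear (0.543 to 89.1), 9.52 in leaf (0 to 65.0) and 48.0 in stem (0.370 to 79.9). By median, leaf was the low tissue for both chromomethylases, with ear and stem ranges that overlapped almost in full. The ddm1 homolog had 42.1 in ear (25.6 to 70.9), 4.75 in leaf (0 to 24.4) and 31.6 in stem (10.6 to 71.3). Its single libraries overlapped between tissues, with leaf libraries up to 34.6 and ear libraries down to 21.4. mop1 had 26.0 in ear (15.0 to 41.4), 4.44 in leaf (1.39 to 10.8) and 11.6 in stem (4.83 to 19.3).

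**Figure D2:**
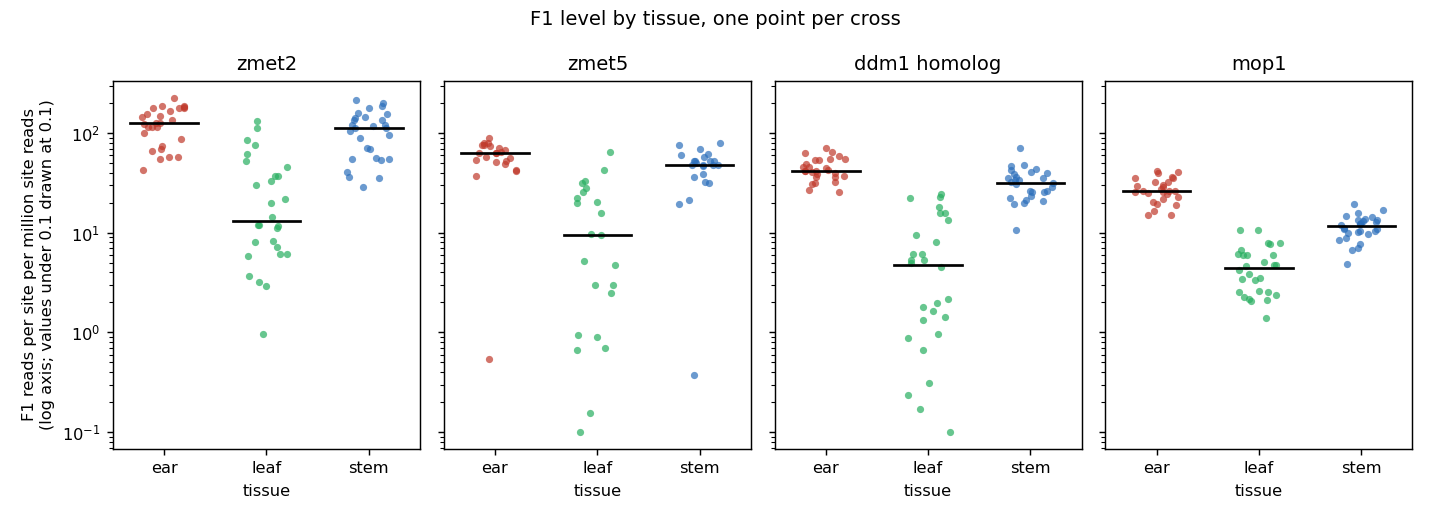
F1 level per counted site per 1000000 site reads (log axis; values under 0.1 drawn at 0.1) of 4 members in ear, leaf and stem, 1 point per cross with the median as a line. Leaf medians (4.44 to 13.1) lie below the ear medians (26.0 to 125), and leaf points spread over more than the other tissues.

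All 4 members with values were higher in ear than in leaf, where 78% of genes were called and 39% were higher in ear. The fits were 4.08-fold for zmet2 (log2 2.03, SE 0.23, adjusted p = 5.5e-12), 4.17-fold for zmet5 (2.06, 0.37, 2.05e-06), 6.06-fold for the ddm1 homolog (2.6, 0.29, 9.5e-12) and 4.27-fold for mop1 (2.09, 0.12, 9.79e-24). All 4 were lower in leaf than in stem (log2 -2.04, -1.96, -2.39 and -1.10 in the same order), beside 68.9% of genes called and 38.1% lower in leaf. Between ear and stem 1 of 4 differed, against 62.8% of genes called and 30% higher in ear. That gene was mop1, 1.99-fold higher in ear (log2 1.00, SE 0.11, adjusted p = 3.01e-11). zmet2 differed by log2 -0.01 (SE 0.21), zmet5 by 0.10 (0.33) and the ddm1 homolog by 0.21 (0.26), which leaves room for differences of up to log2 0.40, 0.75 and 0.73 in favour of ear. Scaling by total depth moved the median of all genes by 0.48 between ear and leaf, 0.22 between ear and stem and -0.33 between leaf and stem. The members were called in the same direction there, with ear over leaf at log2 2.49, 2.5, 3.05 and 2.56 for zmet2, zmet5, the ddm1 homolog and mop1. The split of all genes called between ear and leaf was 9276 higher and 4097 lower in ear by total depth, against 6372 and 6373 in the fit above. By total depth it was 7152 and 3617 for ear over stem, against 4892 and 5363, and 3679 and 8648 for leaf over stem, against 5042 and 6215.

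Leaf libraries of 1 cross often differed by as much as tissues did. The SD of the log2 level of zmet2 between libraries of a cross was 1.18 in leaf, against 0.17 in ear and 0.32 in stem. Levels moved with the sequencing pool, the set of barcoded libraries that shared lanes, which the library names give as pools 5 to 9 for leaf. The median leaf level of zmet2 was 10.3, 60.5, 6.51, 10.4 and 43.0 in pools 5, 6, 7, 8 and 9. The other members were also higher in pools 6 and 9, for instance the ddm1 homolog with medians of 13.6 and 6.90, against 1.85, 1.03 and 1.51 in pools 5, 7 and 8.

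**Figure D3:**
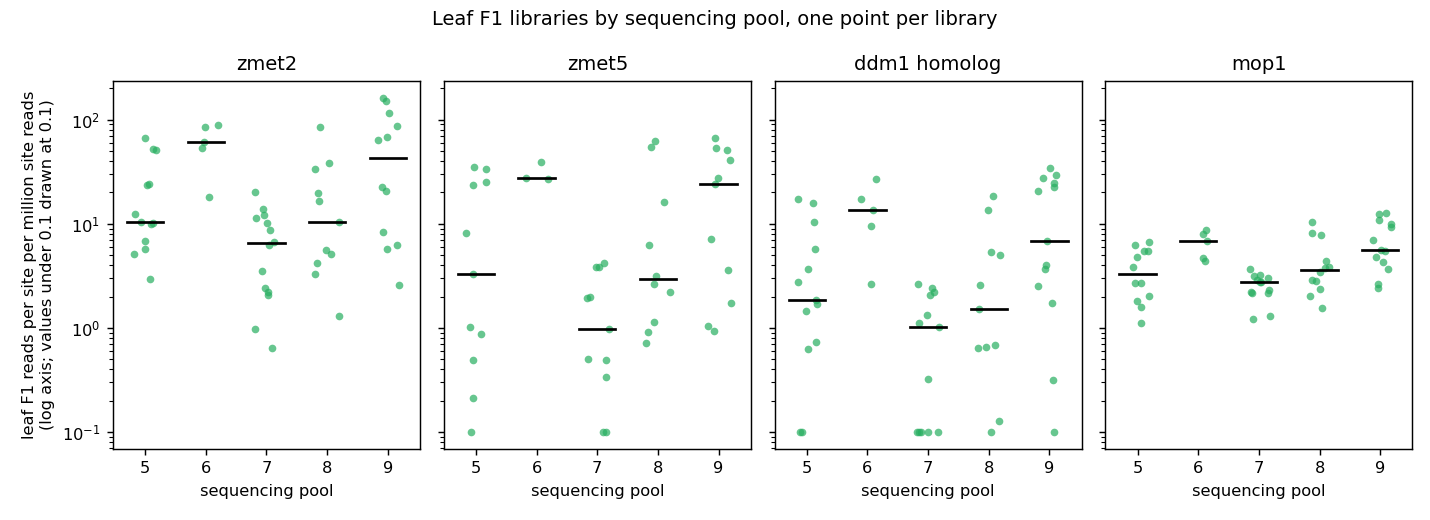
Level of 4 members in single leaf F1 libraries by sequencing pool (5 to 9), with the pool median as a line. Pools 6 and 9 have higher medians for each member (zmet2 60.5 and 43.0, against 6.51 to 10.4 in pools 5, 7 and 8).

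With leaf taken from 1 pool at a time, ear over leaf for zmet2 was log2 2.39, 0.87, 3.74, 2.45 and 1.30 in pools 5 to 9, and each of these was called. For zmet5 the values were 2.51, 0.36, 4.95, 2.96 and 1.35, and the value of pool 6 was not called (adjusted p = 0.202). For the ddm1 homolog they were 3.14, 1.37, 3.38 and 1.64 in pools 5, 6, 8 and 9, with too few reads in pool 7 for a value. mop1 varied least, at 2.5, 1.75, 2.90, 2.28 and 1.62. Leaf over stem for zmet5 was -0.12 from pool 6 alone (adjusted p = 0.735). These alternatives were chosen after the leaf pools had been seen to differ.

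Leaf marker genes were low in the leaf crosses where zmet2 was highest. The 4 markers were C4 photosynthesis genes and the Rubisco gene ssu1, which had a median level of 0 in the 8 leaf crosses that counted it. Their summed level per site ran from 69.4 to 6402 over leaf crosses with a median of 1136. It was 238 in CML103xTIL14, 147 in Mo17xTIL09, 78.2 in Oh43xTIL11 and 69.4 in B73xTIL05, which were the crosses with the highest zmet2 levels in leaf, 133, 112, 86.3 and 75.3. The next cross, W22xTIL14, had zmet2 at 61.5 with markers at 1980. Markers of the other tissues stayed low in leaf: 6 ear markers summed to 0 to 4.11 per site with zag2 at 0, and 4 stem markers to 0 to 2.11 with lg4 at 0. The part of leaf stage or leaf cell content in the members' levels was not tested.

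Ear F1 libraries lay in pools 1 to 4 and stem F1 libraries in pools 10 to 13, apart from those in pool 6. Pool 6 held libraries of every tissue. Its ear library of Oh43xTIL01 and its stem library of Oh43xTIL11 have another tissue in the study's list of replicate pairs than in the labels. Their ear markers summed to 40.7 and 0.828 per site, inside the range of ear crosses (8.73 to 53.2) for the library labelled ear and of stem crosses (0.0249 to 3.65) for the one labelled stem, and the calls above were the same without both. B73xTIL05 was the cross that pool 6 held in all tissues, and ear over leaf was log2 0.15 for zmet2, 0.21 for zmet5, 0.62 for the ddm1 homolog and 1.24 for mop1 within it. Leaf over stem in the same cross and pool was 0.98, 1.33, 0.63 and 0.11 in the same order, the opposite sign to the fits over all crosses (-2.04, -1.96, -2.39 and -1.10). It is 1 cross, so these values carry no test. The leaf library of that cross in pool 6 had leaf markers at 17.2 per site, against 214 to 371 in the other leaf libraries of the pool. The part of that low marker level in these values was not tested.

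The inbreds addressed whether maize and teosinte plants differ in the level of these genes, cis and trans together. Inbred levels were put on 1 scale with a model of site effects, since inbreds are counted at different sites. No member was called in any tissue, against 3.75% of ear, 3.21% of leaf and 0.154% of stem genes. At an unadjusted p under 0.05 there were 2 members in ear, 2 in leaf and 0 in stem. DESeq2 called 2 in ear and 2 in leaf, on a scale on which the median of all genes was shifted by log2 -0.19 in ear and -0.17 in leaf, and which split its calls into 474 genes higher and 3201 lower in maize ears, against 187 and 456 by edgeR. The same split was 791 and 3095 in leaf, against 335 and 211 by edgeR, and 237 and 2492 in stem, against 12 and 15.

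In ear, the ddm1 homolog and mop1 leaned to maize. The ddm1 homolog averaged 40.9 ± 7.33 in maize and 26.3 ± 8.32 in teosinte ears (SD, n = 6 and 9 inbreds). CML103 was highest of the maize inbreds with 49.6 and Mo17 lowest with 29.1, and among teosintes TIL09 reached 39.2 and TIL05 12.2, so the groups overlapped. The difference was log2 0.64 (SE 0.20, adjusted p = 0.101). mop1 averaged 24.4 ± 5.35 in maize and 16.1 ± 3.86 in teosinte ears (SD, n = 6 and 9), from 17.0 in CML103 to 31.9 in B73 and from 10.3 in TIL05 to 23.3 in TIL03. It differed by log2 0.60 (SE 0.17, adjusted p = 0.0621), and by more than the threshold without CML103 (adjusted p = 0.0455) and without TIL03 (0.0271). zmet2 averaged 87.0 ± 37.4 and 81.4 ± 17.0 (log2 0.10, SE 0.24, adjusted p = 0.903). zmet5 averaged 42.7 ± 16.5 and 65.3 ± 70.3 (log2 -0.38, SE 0.49, adjusted p = 0.774), where 1 teosinte value of 252 in TIL10 rested on 8 reads.

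In leaf each member leaned to teosinte. zmet2 averaged 22.4 ± 12.8 in maize and 44.8 ± 20.8 in teosinte leaves (log2 -1.0, SE 0.36, adjusted p = 0.131), and the ddm1 homolog 5.76 ± 4.34 and 13.2 ± 6.96 (log2 -1.19, SE 0.43, adjusted p = 0.125). zmet5 averaged 11 ± 6.90 and 18.6 ± 10.6, and mop1 4.13 ± 1.23 and 5.29 ± 1.7. Libraries of 1 inbred were as far apart as the groups, with zmet2 at 40.3 and 6.26 in the leaves of B73 and at 61.0 and 6.91 in those of Mo17. Without Ki3 the ddm1 homolog passed the threshold in leaf (adjusted p = 0.0316).

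In stem the groups lay together. zmet2 averaged 26.8 ± 17.2 in maize and 25.4 ± 7.94 in teosinte stems, zmet5 11.3 ± 8.35 and 15.8 ± 18.3, the ddm1 homolog 9.34 ± 6.00 and 8.05 ± 3.56, and mop1 4.40 ± 1.52 and 4.37 ± 1.29. The 4 adjusted p-values were 0.943 or higher. The intervals were wide, however, for instance log2 -0.60 to 1.03 for the ddm1 homolog.

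**Figure D4:**
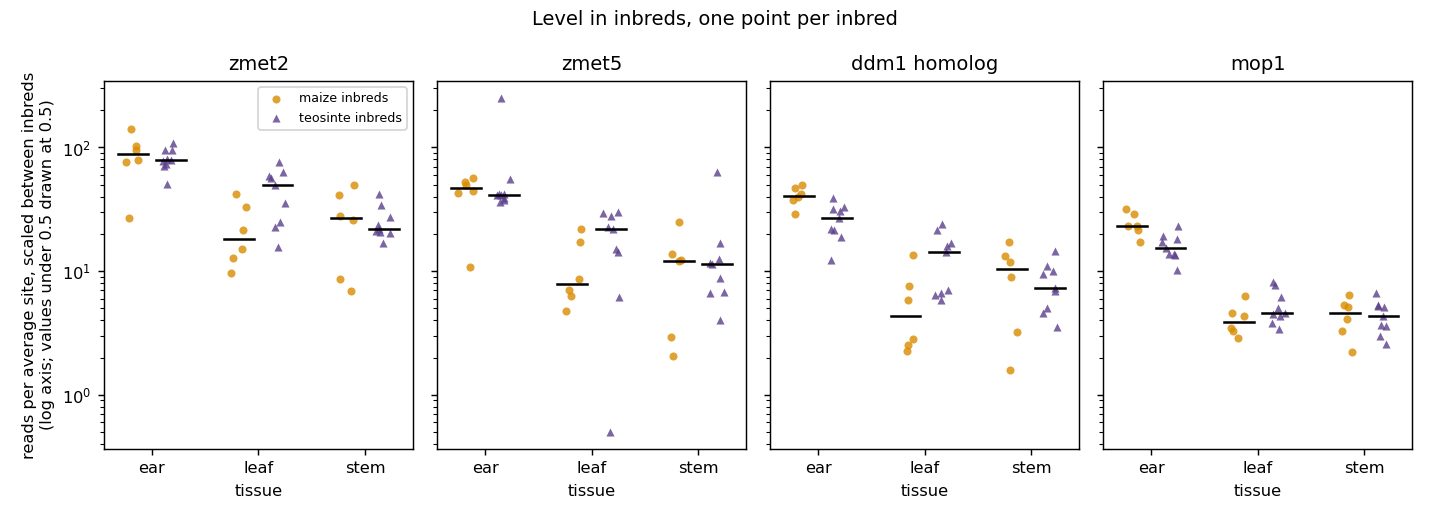
Level of 4 members in 6 maize inbreds and 9 teosinte inbreds in ear, leaf and stem (log axis; values under 0.5 drawn at 0.5), with group medians as lines. Maize and teosinte points overlap for each member in each tissue.

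In principle, inbred differences set beside F1 ratios separate cis from trans. Here no member was called between inbreds in any tissue, and F1s and inbreds were sequenced in different pools. No trans effect is therefore assigned from these fits, and the values are given side by side. In ear, the ddm1 homolog had 0.40 in F1s and 0.64 in inbreds, both toward maize. mop1 had -0.05 in ear F1s and 0.60 in inbreds. In leaf the ddm1 homolog had 0.27 in F1s and -1.19 in inbreds, zmet5 0.41 and -0.87, and zmet2 -0.18 and -1.0. The leaf values of inbreds thus lay far from the F1 ratios, beside the library differences given above.

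**Figure D5:**
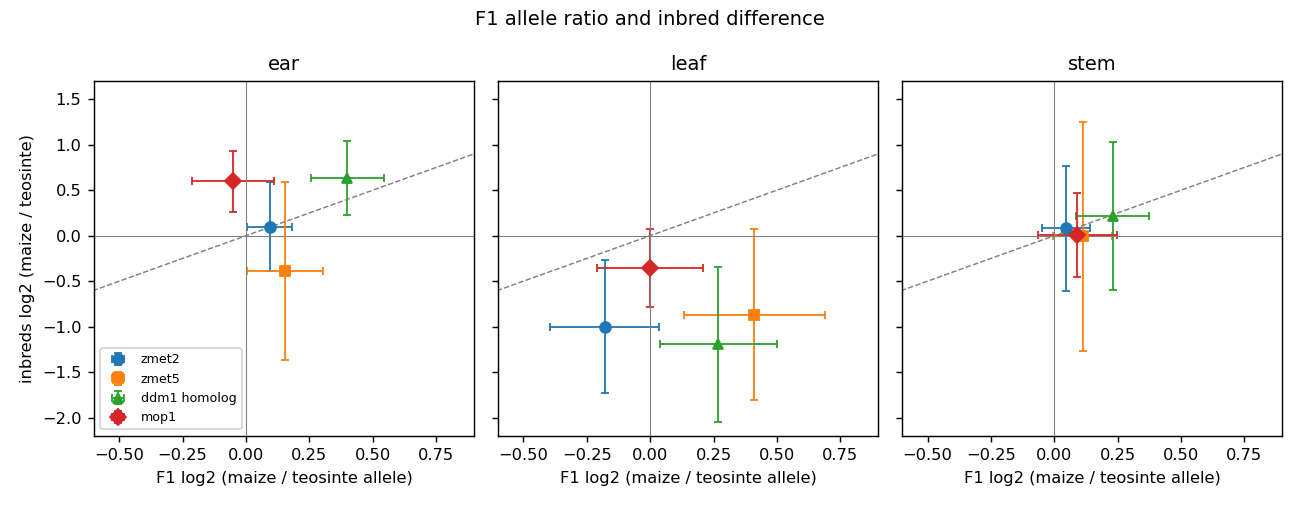
F1 log2 ratio of maize to teosinte (horizontal) and log2 difference of maize and teosinte inbreds (vertical) for 4 members in each tissue, with 2 SE either way and a dashed line where both are equal. In leaf the ddm1 homolog lies at 0.27 and -1.19, far below the line.

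The study's own categories test pooled reads, with exact binomial tests of F1 and parent reads and a Fisher's exact test of one against the other at a false discovery rate of 0.005. They treat each read as independent, although crosses differed by more than counting error, and they call far more genes. All 4 members had a cis or trans effect in each tissue, against 68.3% of ear, 74.1% of leaf and 63.6% of stem genes. In ear, zmet2 (cis 0.09, trans 0.18) and the ddm1 homolog (0.42 and 0.29) were cis + trans, effects in 1 direction, and zmet5 (0.16 and -0.12) and mop1 (-0.07 and 0.62) were cis x trans, effects in opposite directions. In leaf, zmet2 was cis + trans (-0.07 and -0.81), zmet5 (0.27 and -1.46) and the ddm1 homolog (0.38 and -1.79) were cis x trans, and mop1 was trans only (0.03 and -0.25). In stem, both chromomethylases were cis + trans, the ddm1 homolog was cis only (0.22 and 0.06) and mop1 was trans only (0.01 and 0.18). The ddm1 homolog was hence the member with a cis effect called in both ear and stem by the pooled test and by the test over crosses.

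F1 levels lay away from the mean of both parents in leaf and stem, and near it in ear. In ear the median over crosses of F1 over mid-parent was log2 -0.11 for zmet2, -0.04 for zmet5, -0.05 for the ddm1 homolog and -0.06 for mop1. In stem it was 1.30, 1.35, 1.38 and 0.97 in the same order, with F1s higher in 27 of 28, 21 of 22, 28 of 28 and 28 of 28 crosses. In leaf it was -1.06, -0.84, -1.32 and -0.41, with F1s higher in 7 of 27, 5 of 22, 8 of 26 and 7 of 28. Of 11913 genes with a value in at least 15 stem crosses, 9.02% had a median above 0.9, and of 11548 in leaf 5.53% had one below -0.9. Leaf markers moved the other way: their summed F1 over mid-parent had a median of -2.18 in stem (higher in 0 of 29 crosses) and 3.25 in leaf (27 of 29), and stem markers in stem had -0.94 (5 of 28). F1s and inbreds were sequenced in different pools and share parents between crosses, so pool, plant material and genotype cannot be told apart, and no test was made.

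A list of 25 other genes of these routes (methyltransferases, RNA polymerase IV and V subunits, Dicer-like, Argonaute and RNA-dependent RNA polymerase genes, and methyl-CpG-binding proteins) gives the setting. Genes are counted as gene models here, and dcl4, argonaute6, dmt101 and mbd101 each name more than 1. In F1 ratios, ear called 2 of 21 tested, leaf 1 of 20 and stem 3 of 20, each with maize higher. The list medians were -0.11, -0.05 and -0.04, beside 0.04, 0.07 and 0.06 over all genes. The ear calls were dcl1, a Dicer-like gene of the microRNA route (log2 0.22, adjusted p = 0.00226), and mbd117, a methyl-CpG-binding protein gene (0.19, 0.0428). mbd117 was called in stem too (0.20, 0.0322), where mbd123 (1.15, 0.00605) and a dcl4 model (GRMZM2G050882, 0.64, 0.0320) joined it. The other models named dcl4, GRMZM2G024466 and GRMZM2G160473, were not called in stem. They had 960 and 947 stem F1 reads, against 410 in the called model. mbd123 was the leaf call (1.51, 0.0343).

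Between inbreds 1 of 21 list genes was called, rmr7, a subunit of the plant-specific RNA polymerases, in ear (log2 0.48, adjusted p = 0.0459), and 0 of 19 in leaf and 0 of 20 in stem. In levels, 18 of 20 list genes were higher in ear than in leaf and 1 was lower (median log2 1.10, beside 0.00 over all genes), 14 were higher and 1 lower in ear than in stem (0.43), and 1 was higher and 14 lower in leaf than in stem (-0.50). The reference gene table of another assembly names 2 more models as dmt101, the symbol it gives to ZMET1: GRMZM2G333997 had 4 sites and 0 F1 reads, and GRMZM2G334041 had no sites, so zmet1 stays without a value here.

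Across crosses and tissues the levels of the members followed each other, with Pearson r of 0.860 to 0.978 between pairs. The mean of each cross was taken off first, and the 65 to 80 points share libraries and depth. The difference between tissues stayed in, and each member was lower in leaf than in ear and stem. A high r can come from that difference alone, for the members and for the genes below, so it is not a separate result. The genes most like zmet2 were GRMZM2G363474 (r = 0.981), GRMZM2G017536 (0.976) and GRMZM2G082384 (0.976), over 83 points and among 2948 candidates. Those most like zmet5 were GRMZM2G154904 (0.981), GRMZM2G326328 (0.979) and GRMZM2G083475 (0.976) over 68 points. For the ddm1 homolog they were GRMZM2G082384 (0.985), GRMZM2G121210 (0.984) and GRMZM2G326328 (0.980), and for mop1 GRMZM2G444808 (0.985), GRMZM5G809695 (0.984) and GRMZM2G040078 (0.984), both over 83 points. GRMZM2G082384 and GRMZM2G326328 were each found for 2 members.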

How the data were processed

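RNA-seq reads at segregating sites were analysed for 268 libraries (180 of F1s, 88 of inbreds), sequenced from polyA RNA with strand-specific, barcoded libraries. The deposited values are raw counts: the authors aligned reads with Bowtie, keeping perfect alignments only, to parent-specific pseudo-transcriptomes built from B73 AGPv2 (tool version not given here), and counted reads of each allele at single-base differences and small indels. Sites without a perfect match in a parent drop out, so levels depend on which sites a cross has. The 2 lanes of each F1 library, and then replicates, were summed per cross or inbred. F1 depths were 814831 to 2686049 in ear (59 libraries), 1061268 to 2997114 in leaf (57) and 1271576 to 3178709 in stem (56), and the depth of a gene limits its precision. Between replicates, gene depths gave a chi-square per degree of freedom with a median of 6.98 for F1s and 5.11 for inbreds, and a minimum of 1.45. Sampling noise gives 1 for genes with 1 site. A read over several sites is counted at each, which raises the value, so the lowest pairs are not shown to differ beyond sampling.

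Genes with at least 100 reads were tested with edgeR 4.0.16 (quasi-likelihood, Benjamini-Hochberg adjusted p below 0.05) in R 4.3.3. The F1 ratio had the cross as a block and raw library sizes, tissue levels the cross as a block and TMM scaling, the ratio between tissues an allele by tissue term within crosses, and inbreds site offsets and median-of-ratios scaling. The categories used exact binomial and Fisher's exact tests with q-values at 0.005, and the parent terms a weighted linear model over genes with at least 15 crosses of 10 or more reads (0.5 added to each allele depth, crosses of the 3 teosintes with 1 cross left out). F1 over mid-parent used sites counted in both parents and at least 30 reads. Error bounds are 2 SE. Each fit was tested on simulated data. Alternatives were DESeq2 1.42.0, other scalings and minimum depths, libraries as units, sequencing pools, and leaving out replicates, parents or doubtful libraries. Another was the deepest site of each gene, picked within each cross or inbred. Members, the list of 25 other genes and the markers were chosen with earlier results of these data known. Named are the members in every comparison, list genes called in an F1 ratio or between inbreds, and the 3 genes most like each member in level. Symbols came from RefSeq's table of another assembly, so no coordinates were taken from it. The 8 libraries of crosses outside the study's list entered an alternative only.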

Additional observations from a re-analysis of the deposited data

Results flagged for a closer look

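Of 24 groups of inbreds (each member, tissue and kind of inbred), 3 held a value far from the others of its group, and chance alone gives about 1 in 20. zmet5 was at 10.8 in ears of Mo17, against 42.9 in the nearest of the 6 maize inbreds, and both libraries of Mo17 agreed (10.8 and 10.8). zmet5 was at 252 in ears of TIL10, against 55.5 in the nearest of 9 teosinte inbreds, and at 63.6 in stems of TIL10, against 16.9. Those values of TIL10 rested on 8 and 2 reads, and it had 0 reads in leaf.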

How the results depend on the processing

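Leaf levels, B73xTIL01 libraries and read depth limit these results: leaf gave the members 2849 to 12284 F1 reads, against 13307 to 55493 in stem, and the level calls over leaf held in each alternative that gave a value, except zmet5 in leaf libraries of pool 6; the ddm1 homolog had no value from pool 7.

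Over all genes, for ear, leaf and stem in that order, the F1 ratio called 2652, 2363 and 2368 genes, 1346, 1216 and 1168 with the deepest site, 5348, 4230 and 4320 with libraries as units and a replicate block and 1438 to 2619, 1090 to 2349 and 861 to 2325 on leaving one out, and 1182 in leaf and 1020 in stem with the further crosses. Inbreds called 643, 546 and 27 genes, 3675, 3886 and 2729 with DESeq2, 2594, 3022 and 813 with libraries as units (2461, 2845 and 743 with the block) and 377 to 616, 26 to 1087 and 9 to 34 on leaving one out, and stem 15 with the deepest site. The ratio between tissues (ear and leaf, ear and stem, leaf and stem) called 1025, 399 and 741 genes, 499, 135 and 341 with the deepest site and 288 to 391, 11 to 125 and 57 to 90 on leaving out a replicate. Levels called 12745 genes for ear over leaf and 11257 for leaf over stem, against 6738 and 3965 from leaf libraries of pool 6.

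Counts of members called in the F1 ratio were 1 in ear, 0 in leaf and 1 in stem. With DESeq2 they were 2 in ear and 1 in leaf. With the deepest site they were 0 in ear and 0 in stem. In stem the count was also 0 at adjusted p below 0.005, with TMM factors, with the 2 further crosses and without libraries above 55% maize. Leaving out a replicate or parent gave 0 to 1 in leaf and 0 to 1 in stem. Between inbreds, where the main count was 0, ear gave 2 with DESeq2, 1 with the deepest site, 2 with libraries as units and 0 to 1 on leaving out an inbred or replicate. Leaf gave 2 with DESeq2, 2 with libraries as units and 0 to 1 on leaving one out. Categories with an effect went to 2 of 4 members in stem with the deepest site, and to 2 to 4 in ear and 2 to 4 in stem on leaving one out. Members with a called parent term were 1 in leaf without weights, 0 in leaf and 1 in stem with the deepest site. Leaving out a replicate gave 2 to 3 in ear, 0 in leaf both times and 0 to 3 in stem.

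Replicate numbers do not pair libraries across tissues (median correlation of deviations -0.0069, -0.0176 and -0.0699), nor across inbreds (0.0041, 0.0074 and 0.00045). With libraries as units and a replicate block the F1 ratio called 2 members in ear and 1 in leaf, and the inbreds gave 2 in ear and 2 in leaf. The block also turned zmet2 to 0.00447 in ear over stem and zmet5 to 0.13 between stem inbreds.

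Signs turned for values that were not called. For the F1 log2 ratio, mop1 was -0.14 to 0.025 in ear, -0.13 to 0.081 in leaf and -0.0018 to 0.20 in stem on leaving one out, and in leaf 0.26 with the deepest site and 0.076 with the further crosses. zmet2 in stem was -0.0033 with TMM factors, -0.019 with the deepest site and -0.0095 to 0.089 on leaving one out. Between tissues, leaving out a replicate gave -0.0077 to 0.073 (zmet2) and -0.077 to 0.10 (zmet5) for ear against stem, and -0.051 to 0.062 for the ddm1 homolog in leaf against stem, where mop1 was 0.12 with the deepest site. zmet2 in ear over stem was 0.014 with the deepest site, 0.22 by total depth and -0.070 to 0.094 on leaving one out. The pooled cis effect of mop1 was -0.18 to 0.0097 in ear, -0.12 to 0.13 in leaf and -0.075 to 0.087 in stem on leaving one out, and -0.0017 in stem without libraries above 55% maize. That of zmet2 in stem, which the pooled test called, was -0.019 with the deepest site and -0.032 to 0.14 on leaving one out. Between inbreds, leaving one out gave -0.093 to 0.29 (zmet2) and -0.48 to 0.025 (zmet5) in ear, and in stem -0.048 to 0.43 (ddm1 homolog), -0.13 to 0.14 (mop1), -0.19 to 0.28 (zmet2) and -0.41 to 0.21 (zmet5). In stem zmet5 was 0.090 with DESeq2, 0.045 with at least 10 parent reads, 0.14 with libraries as units and 0.023 by total depth, and mop1 -0.15 with the deepest site. The cause of these turns was not tested.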
